A study of Mus musculus with 2 samples.

Results

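The cells described here are the 189 mouse embryonic stem cells, of 2705 filtered cells grown in LBPXRS medium, that gave the largest share of their RNA molecules to 5 genes: Spp1, Lgmn, Ctsl, Cd9 and Atp6ap2. A cell's score was the summed share of those 5 genes among its UMIs (unique molecular identifiers, each marking 1 captured RNA molecule), and the members are the 7% of cells with the highest score. The series holds 4488 filtered cells in 2 libraries, 1 per culture condition, and the other 2516 filtered LBPXRS cells are the comparison throughout. R1 embryonic stem cells were grown in N2B27, a serum-free medium, for 72 hours in both conditions. LB cells received LIF, which sustains self-renewal, and BMP4, and grew on gelatin. LBPXRS cells grew on fibronectin and received LIF and BMP4 together with PD0325901 (a MEK inhibitor), Xav939 (a tankyrase inhibitor that dampens WNT signalling), SB431542 (an inhibitor of the NODAL and activin receptors) and Resorcyclic lactone, for which the labels name no target. Medium and substrate therefore cannot be told apart. No animals, donors or separate cultures are named beyond the 1 library per condition, so no comparison here has a replicate check.

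Lysosomes are acidic organelles that degrade proteins, lipids and sugar chains with hydrolases, which are made in the endoplasmic reticulum, carried through the Golgi and activated at low pH. The V-ATPase pumps the protons that hold that pH, and transcription factors of the TFEB and TFE3 family drive many lysosome genes by binding the motif CACGTG. Spp1 encodes osteopontin, a secreted phosphoprotein that binds integrins, and in the early embryo its enhancer is bound by OCT4 and SOX2. Cells high in Spp1 and cathepsins are often macrophages in other tissues, and the visceral endoderm of the embryo is also rich in lysosomes, so markers of both were examined.

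LBPXRS gave 3111 barcodes against a recovery target of 5000 cells and LB gave 2008, of which 2705 and 1783 passed the filters with medians of 19058 and 25418 UMIs per cell. The 189 members held 3058711 UMIs. They were shallower than the other cells: UMIs per member ranged from 1939 over a median of 16352 to 39207, against 2056, 19197.5 and 46487 in the others. Of the members, 52 (27.5%, 95% interval 21.3 to 34.5) had fewer than 10000 UMIs, compared with 144 of the others (5.72%, 4.85 to 6.70). The median share of mitochondrially encoded RNA was alike (2.42% and 2.54%), but 40 members (21.2%) and 55 other cells (2.19%) lay above 5%. Median shares were lower in the members for ribosomal protein RNA (33.5% against 37.9%) and for the nuclear RNA Malat1 (0.718% against 0.839%). These depth and RNA quality measures moved with membership, and their part in the results below was not tested. Many results are therefore also given for the 137 members and 2372 other cells with at least 10000 UMIs, a bound chosen after seeing the data. All intervals are exact 95% intervals and allow for counting error alone.

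The score had no gap that would set the members apart as a type. The lowest member had a score of 0.252% and the highest cell outside it 0.251%. Within 10% of that bound lay 90 cells, 35 of them members. The members' median score was 0.335% against 0.0917% in the other cells, and the highest member reached 3.13%. Scores ran on without a break across the bound, as the plot of score against depth shows.

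**Figure D1:**
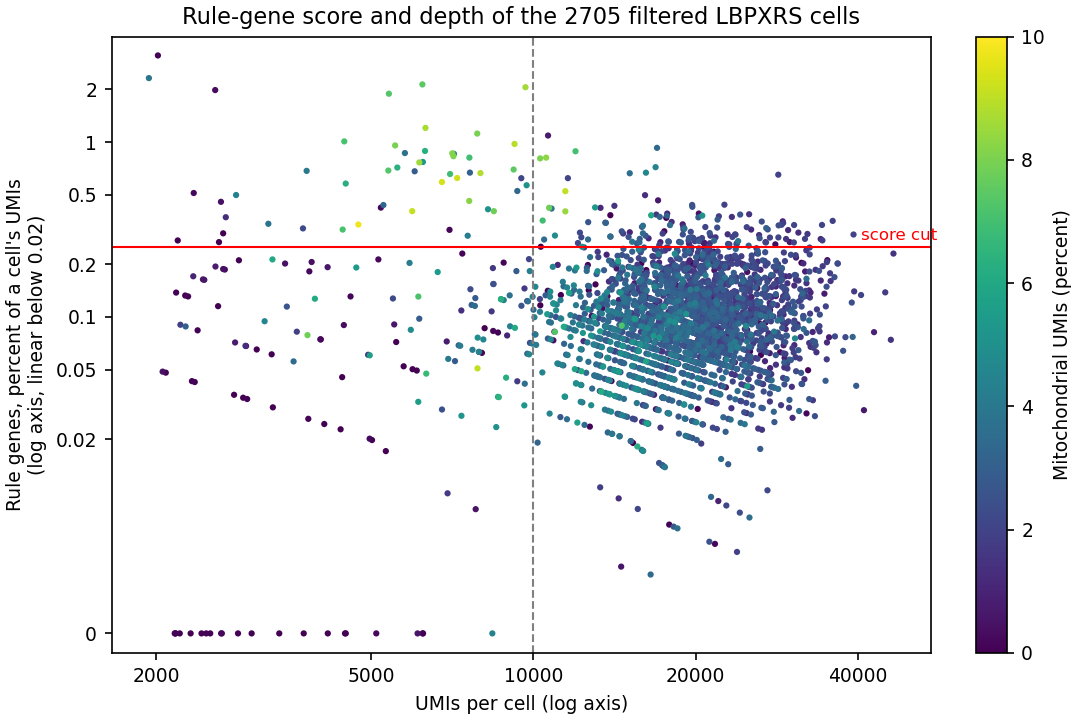
Score of each of the 2705 filtered LBPXRS cells (percent of its UMIs from Spp1, Lgmn, Ctsl, Cd9 and Atp6ap2, log axis that is linear below 0.02%) against its UMIs (log axis), coloured by mitochondrial share in percent, with the bound of 0.252% as a red line and 10000 UMIs as a dashed line. Members lie above the red line, where the deeper ones continue the main cloud and the shallow ones are more spread out and often high in mitochondrial RNA.

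Among the 5 genes that chose the members, Spp1 (ENSMUSG00000029304) gave the most molecules. Its value per member ran from 0 over a median of 2097 to 14392 CPM (UMIs per 1000000 UMIs of the cell), while the other cells had a median of 480 and a highest value of 2105 CPM. The groups overlapped, and 2 members were at 0, but the members' median lay just below the highest other cell. Summed over cells, Spp1 stood at 2301 CPM (2248 to 2355) in the members and 568 (562 to 575) in the others. Cd9 (ENSMUSG00000030342), a tetraspanin of the plasma membrane and of exosomes, ran from 0 over 735 to 10422 CPM per member and stood at 797 CPM summed (766 to 829), against 250 in the other cells. Ctsl (ENSMUSG00000021477), the lysosomal cysteine protease cathepsin L, ran from 0 over 302 to 5157 CPM and stood at 424 CPM summed (401 to 448) against 110. These sizes come from the genes of the rule itself, so they describe the choice and are no result.

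Atp6ap2 (ENSMUSG00000031007), an accessory subunit of the V-ATPase also known as the prorenin receptor, ran from 0 over 158 to 2579 CPM per member and summed to 184 CPM (169 to 200) against 62.0. Lgmn (ENSMUSG00000021190), the asparaginyl endopeptidase legumain, was the sparsest: it was at 0 in 41 members, had a median of 100 CPM and summed to 117 CPM (106 to 130) against 37.1. The members were not uniform in how they reached the bound. Spp1 made up a median of 62.1% of a member's rule UMIs (quartiles 46.8% and 70.9%), compared with 53.8% in the other cells. In 100 of the 189 members (52.9%) each of the 5 genes was above its median over all LBPXRS cells, as it was in 152 of the other cells (6.04%). A further 64 members were above it in 4 genes and 18 in 3, leaving 6 with 2 and 1 with a single gene.

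Each gene was also left out of the score in turn, the 7% of cells highest in the other 4 were taken, and its own level was compared. The 5 genes were chosen together on these data and most of the cells taken were again members, so the ratios describe how far the score rests on each gene and are no independent support. Ctsl was 3.33-fold higher (3.12 to 3.54, 375 against 113 CPM), Lgmn 3.02-fold (2.69 to 3.39) and Atp6ap2 2.82-fold (2.57 to 3.09). Cd9 was 2.78-fold higher (2.66 to 2.91, 710 against 255 CPM). Spp1 was 2.55-fold higher (2.48 to 2.63, 1571 against 615 CPM), and the cells chosen without it held 118 of the 189 members, fewer than the 169 to 185 shared when any other gene was left out. The ratios were smaller when the choice was repeated among the 2509 cells with at least 10000 UMIs. There the ratios were 2.25 for Ctsl (2.09 to 2.41), 2.18 for Lgmn (1.92 to 2.47), 2.07 for Atp6ap2 (1.87 to 2.29), 2.26 for Cd9 (2.15 to 2.37) and 2.09 for Spp1 (2.02 to 2.15).

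Across 2621 LBPXRS cells thinned to 5000 UMIs each, the 10 pairwise correlations of the 5 genes lay between 0.241 and 0.452. They lay between 0.115 and 0.277 among the 2509 cells that had at least 10000 UMIs before thinning. The 5 genes were chosen together with results of these cells known, and the points are cells of 1 library, so the coefficients describe the choice and this library and support nothing further.

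**Figure D2:**
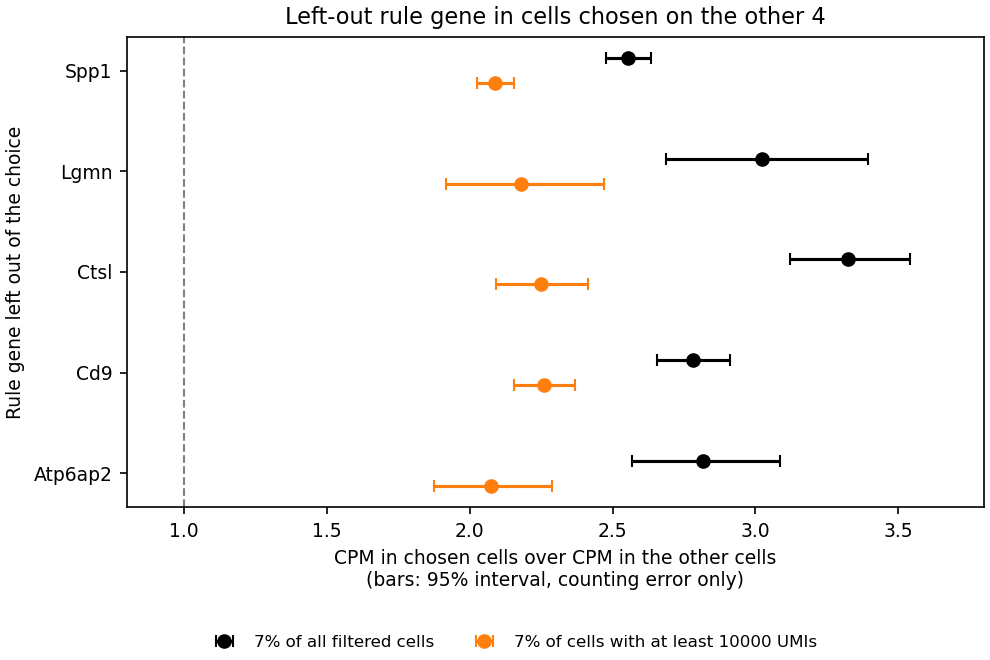
Ratio of each rule gene's CPM in the 7% of cells chosen on the other 4 genes to its CPM in the remaining cells, with exact 95% intervals for counting error, in all filtered LBPXRS cells (black) and in those with at least 10000 UMIs. All 10 ratios lie above 1, from 2.07 to 3.33, and each is lower in the deeper cells.

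Across the transcriptome the members differed from the other cells mostly upwards. Differences are log2 ratios of summed CPM with a pseudocount of 1, and a gene was counted as higher or lower by size alone, at 1.5-fold with at least 20 CPM in either group. Past that minimum were 4868 genes, the 5 rule genes included. Of these, 434 were higher (8.92%) and 50 lower (1.03%), with a median log2 ratio of 0.06 over all of them. The 5 rule genes are among the 434. At 2-fold, 74 genes were higher (1.52%) and 4 lower (0.0822%). With TMM scaling, which shifted the median of all genes to -0.0024, the counts were 329 and 91, so that 78.3% rather than 89.7% of the counted genes were higher. Because the members were chosen in the same cells, nothing is read from these counts alone. Among the deeper cells, 313 of 4811 genes were higher (6.51%) and 50 lower (1.04%), and 298 of the 313 were among the 434.

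Of 91 lysosome genes outside the rule in the files, 47 passed the CPM minimum, and 24 of those were higher and 0 lower, beside 8.92% and 1.03% of all genes. Their sizes were unequal, and their median log2 ratio was 0.60, within a range from -0.45 to 1.49. Their summed level per member ran from 3346 over a median of 6861 to 50124 CPM, against a median of 4821 CPM and a highest value of 20802 in the other cells. The ranges overlapped, and 163 members (86.2%) lay above the other cells' median. In the deeper cells 16 of 45 were higher, beside 6.51% of all genes, with a median of 0.44, and 113 of the 137 deeper members (82.5%) lay above the other cells' median. Among the 140 members outside a small cluster of 49 mostly shallow members, described further on, 12 of 46 were higher, beside 6.03% of all genes, with a median of 0.39. Ctso, Ctss and Arsb had no UMI in any member, which allows up to 0.981 CPM. That bound, here and below, is 3 UMIs over the members' total and not an exact interval.

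Among the lysosomal proteases, 4 of 6 past the minimum were higher, beside 8.92% of all genes, and the same 4 of 6 in the deeper cells, beside 6.51%. Ctsd, the aspartic protease cathepsin D, ran from 0 over a median of 262 to 6948 CPM per member and summed to 315 CPM (296 to 336) against 111 in the other cells, a log2 ratio of 1.49 that stood at 1.17 in the deeper cells. Ctsb, the cysteine protease cathepsin B, was at 203 against 92.4 CPM (log2 1.13), Ctsz at 108 against 53.9 CPM (0.99) and Ctsa, which also shields β-galactosidase and neuraminidase from breakdown, at 131 against 68.9 CPM (0.91). Tpp1 (log2 0.35) and Scpep1 (0.51) were below the 1.5-fold size. The proteases that were higher thus included aspartic, cysteine and serine enzymes.

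Of the lipid and sugar hydrolases, 12 of 17 were higher, beside 8.92% of all genes, with a median log2 ratio of 0.73. Of those tested in the deeper cells 8 of 15 were higher, beside 6.51%, with a median of 0.61. Asah1, which splits ceramide, was at 126 against 50.6 CPM (log2 1.30). Glb1, the lysosomal β-galactosidase, was at 91.2 against 38.1 CPM (1.24). Psap, the precursor of the saposins that present lipids to these enzymes, was at 263 against 121 CPM (1.11). Hexa, Gaa, Gusb, Neu1, Ppt1, Plbd2 and Gnptg were also higher. Gnptg is a subunit of the Golgi enzyme that starts the mannose-6-phosphate tag by which hydrolases are sorted to lysosomes.

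Membrane and sorting proteins were higher in 6 of 12 genes, beside 8.92% of all genes, with a median of 0.57. Grn, the precursor of progranulin, was at 159 against 68.7 CPM (log2 1.20), the tetraspanin Cd63 at 428 against 221 CPM (0.95) and Lamp1, the most familiar lysosomal membrane glycoprotein, at 550 against 361 CPM (0.60). Cd68, Lamp2 and Laptm4a were the other 3. Cells with at least 10000 UMIs had 2 of the 12 higher, Cd63 and Grn, beside 6.51% of all genes. Of 12 V-ATPase subunits 2 were higher, beside 8.92% of all genes, with a median of 0.22. They were Atp6v0c, the proteolipid of the membrane ring (514 against 299 CPM, log2 0.78), and Atp6ap1, an accessory subunit like the rule gene Atp6ap2 (49.4 against 20.1 CPM, 1.25).

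Over all members, lysosome regulators and autophagy genes were near the level of all genes. Of 9 genes for TFE factors and lysosomal nutrient sensing past the minimum, 0 were higher and 0 lower, with a median of -0.05 and a range from -0.22 to 0.29. Tfe3 stood at 48.1 against 49.6 CPM, and Tfeb, which was below the minimum, at 13.1 against 14.9 CPM. Of 16 autophagy genes 1 was higher, Sqstm1, whose product p62 carries cargo into autophagosomes, and their median was 0.03. Over all genes 8.92% were higher and 1.03% lower, with a median of 0.06. In the deeper cells 0 of 9 and 0 of 15 were higher, beside 6.51% of all genes. Under 10000 UMIs 2 of 9 nutrient-sensing genes were higher and 3 lower, with a median of -0.18. Of 16 autophagy genes there, 1 was higher and 5 were lower, with a median of -0.11. The shares of all genes there were 31.2% higher and 16.6% lower. No test of a difference between lists was made. Of 10 tetraspanins other than Cd9, 2 were higher over all members, beside 8.92% of all genes, Cd63 and Cd81 (459 against 254 CPM, log2 0.85). Both were also higher among 9 tested in the deeper cells, beside 6.51%.

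**Figure D3:**
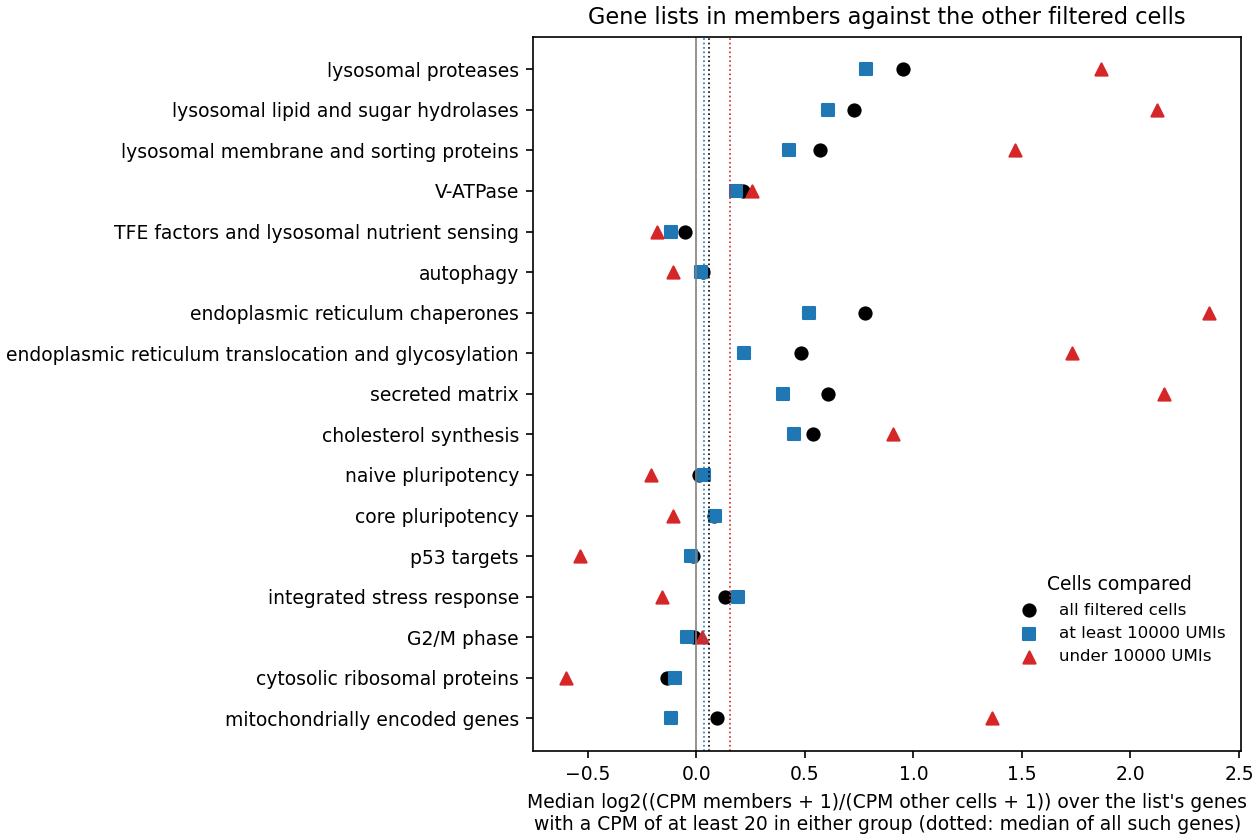
Median log2 ratio of members to other cells (CPM + 1) over the genes past 20 CPM of each list, for all filtered cells (circles), cells with at least 10000 UMIs (squares) and cells under 10000 UMIs (triangles), with dotted lines at the median of all such genes. The lysosomal lists other than the V-ATPase and the endoplasmic reticulum chaperones stand at 0.57 to 0.95 for all cells, lower in the deeper cells and higher in the shallow ones, while nutrient sensing (-0.05) and autophagy (0.03) lie near 0.

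Spp1 and Ctsd are shown with the 250 bases before their RefSeq start on GRCm38.p6, since Spp1 leads the rule and Ctsd is the lysosome gene outside it with the largest ratio. The motif CACGTG, which is its own reverse complement, is in capitals. It occurred in 1634 of the 27025 genes with such a window (6.05%), and in 14 of the 71 lysosome genes that had one (19.7%). The longer palindrome TCACGTGA, which contains it, was in 5 of those 71 and in 0.803% of all. Of the 14 lysosome genes with CACGTG, only Ctsd, Gaa, Glb1 and Lamp1 were among the 24 counted as higher in the members. Ctsd, on the minus strand at chr7:142387828-142388077, held CACGTG 2 times, beginning 245 and 98 bases before the start. Spp1, on the plus strand at chr5:104434861-104435110, held it 0 times, and of the 5 rule genes Ctsl alone had a match in its window, whose end lies 214 bases from the start that most of its GENCODE transcripts share. A match describes letters in a window and says nothing of binding in these cells.
Spp1: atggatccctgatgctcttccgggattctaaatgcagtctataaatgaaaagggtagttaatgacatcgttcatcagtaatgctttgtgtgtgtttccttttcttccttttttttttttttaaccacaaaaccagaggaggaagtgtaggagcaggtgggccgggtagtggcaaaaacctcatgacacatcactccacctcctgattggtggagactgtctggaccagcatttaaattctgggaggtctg
Ctsd: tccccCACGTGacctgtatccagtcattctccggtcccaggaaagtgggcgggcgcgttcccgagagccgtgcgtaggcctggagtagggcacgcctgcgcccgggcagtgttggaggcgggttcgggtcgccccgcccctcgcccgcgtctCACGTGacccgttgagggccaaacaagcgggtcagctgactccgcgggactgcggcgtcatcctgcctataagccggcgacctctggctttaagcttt

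Among genes outside the rule at 50 CPM or more in either group, the 3 largest ratios belonged to folding factors of the secretory pathway. Hspa5, the endoplasmic reticulum chaperone BiP, ran from 0 over a median of 124 to 7513 CPM per member and summed to 220 against 66.5 CPM, a log2 ratio of 1.71. It stood at 1.12 in the deeper cells. Serpinh1, a collagen chaperone, came next (113 against 37.8 CPM, log2 1.55), but 2 cells held 39.4% of its UMIs in the members and its ratio was 0.85 without them. Then came Pdia6, which forms disulfide bonds (331 against 116 CPM). Of 13 endoplasmic reticulum chaperones past the minimum, 10 were higher, beside 8.92% of all genes, with a median of 0.78. They included Hsp90b1 (386 against 188 CPM, log2 1.03), Calr (567 against 318 CPM, 0.83), Pdia3 (1.20) and Pdia4 (1.25). The list's summed level had a median of 2016 CPM per member and 1269 per other cell. In the deeper cells 5 of 12 were higher, beside 6.51% of all genes, with a median of 0.52, and among the 140 members outside the small cluster 4 of 11, beside 6.03%, with a median of 0.46.

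A list added after seeing the data holds genes for translocation into the endoplasmic reticulum, N-glycosylation and transport of cargo between the reticulum and the Golgi. Of its 27 genes past the minimum 11 were higher, beside 8.92% of all genes, and the median of the 27 was 0.48. The transport genes among the 11 were Bcap31, Tmed9 and Tmed10. The deeper cells had 6 of 27 higher, beside 6.51%, with a median of 0.22. Rpn2 (log2 1.24) and Ddost (1.19), subunits of the oligosaccharyltransferase, were among them, as was Bcap31 (146 against 52.9 CPM, 1.45), a membrane protein that sorts cargo leaving the reticulum. Hspa5 is shown with the 250 bases before its RefSeq start, on the plus strand at chr2:34771840-34772089. In capitals is the endoplasmic reticulum stress element, CCAAT and CCACG with 9 bases of any kind between them, searched on both strands. It begins 65 bases before the start. Of 12 chaperones with a window 6 held it (Calr, Canx, Creld2, Hsp90b1, Hspa5 and Pdia6), against 33 of all 27025 genes (0.122%) and 0 of the 71 lysosome genes. Of those 6, Creld2 was not among the chaperones counted as higher. These shares belong to the list as chosen, and a match says nothing of binding in these cells.
Hspa5: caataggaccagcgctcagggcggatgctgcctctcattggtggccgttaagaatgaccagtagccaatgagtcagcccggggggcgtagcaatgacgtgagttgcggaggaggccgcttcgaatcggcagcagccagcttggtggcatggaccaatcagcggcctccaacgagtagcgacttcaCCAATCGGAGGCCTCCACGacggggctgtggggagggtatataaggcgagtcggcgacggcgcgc

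The remaining genes among the 12 largest ratios were mixed. Apoe, a lipid carrier that is also a visceral endoderm marker, ran from 0 over a median of 2090 to 64516 CPM per member, summing to 2653 against 995 CPM (log2 1.41, and 1.13 in the deeper cells). Aqp3, a water and glycerol channel, stood at 142 against 51.3 CPM (1.45), but its median per member was 0, as it was in the other cells. Trap1a was at 308 against 112 CPM (1.45), Rcn3, a calcium-binding protein of the endoplasmic reticulum, at 73.2 against 27.2 (1.39), Ifi30, a lysosomal thiol reductase, at 132 against 50.1 (1.38), and Glmp, a lysosomal membrane glycoprotein, at 82.7 against 33.8 (1.27). Ifi30 and Glmp were not in the lysosome lists.

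Fewer genes were lower. Among those at 50 CPM or more in either group, Golga3, a Golgi matrix protein, had the smallest ratio, at 36.3 against 80.6 CPM (log2 -1.13), and 33.3% of its UMIs in the members came from 2 cells. Smarcd1 (-0.73), a subunit of the SWI/SNF chromatin remodelling complex, Crip1 (-0.72), Tigd2 (-0.66), Hnrnpa0 (-0.64) and Dnlz (-0.62) followed. Hk2, the hexokinase that opens glycolysis, was at 72.3 against 109 CPM (-0.59). It was the 1 lower gene of 14 in the glycolysis and hypoxia list, whose median was 0.32 with 0 genes higher. Ppdpf (-0.59) also passed the 1.5-fold size. Bola3, Slc25a1, Srrm4os and Pcbp4, between -0.57 and -0.55, were under that size and are not among the 50 genes counted as lower. Which genes were lower depended on the choice of members: of the 50, 15 were also lower with members ranked on thinned cells and 11 with Spp1 left out of the score. Over all members the 85 cytosolic ribosomal protein genes had a median of -0.14, with 0 past the 1.5-fold size. Among cells under 10000 UMIs, the median share of ribosomal protein RNA was 24.6% in the members and 34.9% in the others.

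Of 15 cholesterol synthesis genes 7 were higher, beside 8.92% of all genes, with a median of 0.54. In the deeper cells 6 of 15 were higher, beside 6.51% of all genes, with a median of 0.45. Fdps, which makes farnesyl pyrophosphate, was at 407 against 224 CPM (log2 0.86, and 0.88 in the deeper cells), and Msmo1, a sterol demethylation enzyme, at 138 against 61.8 CPM (1.15). Of 14 integrated stress response genes 2 were higher, Asns (475 against 277 CPM, 0.78) and Phgdh (0.61), which make asparagine and serine, a share close to the 8.92% of all genes. The glutathione-degrading enzyme Chac1, a common marker of that response, was lower, at 13.1 against 24.3 CPM (-0.85). Asns was, in the deeper cells, the 1 higher gene of 14 and Chac1 the 1 lower, beside 6.51% and 1.04% of all genes. Of 7 iron and NRF2 genes past the minimum 2 were higher, Hmox1 and Gsta4, beside 8.92% of all genes, and the median of the 7 was 0.17. Hmox1, heme oxygenase 1, was at 55.6 against 29.0 CPM (0.91). Of 9 p53 targets past the minimum, 0 differed by 1.5-fold over all members. Under 10000 UMIs 3 of 9 were lower, Cdkn1a, Trp53inp1 and Phlda3, beside 16.6% of all genes, and 0 were higher, with a median of -0.54.

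Core pluripotency genes stood at about the level of the other cells over all members. Of 10 core pluripotency genes 0 differed by 1.5-fold, also in the deeper cells, with a median of 0.08. Pou5f1, the gene of the transcription factor OCT4, was at 968 against 991 CPM (log2 -0.03) and Sox2 at 204 against 234 CPM (-0.19). Under 10000 UMIs, 1 of 9 core genes was higher, beside 31.2% of all genes, and 3 were lower, beside 16.6%, with a median of -0.11. The higher gene was Tdgf1 (log2 1.04), and the lower ones were L1td1 (-0.87), Pou5f1 (639 against 1024 CPM, -0.68) and Sox2 (59.3 against 156 CPM, -1.38). In the small cluster of 49 members the log2 ratios to all other cells were 0.82 for Tdgf1, 0.63 for Dppa5a, -0.67 for Pou5f1 and -1.32 for Sox2. Of 12 naive pluripotency genes 2 were higher, beside 8.92% of all genes, Klf2 (501 against 326 CPM, 0.62) and Nr0b1 (0.60), while Nanog (0.28) and Esrrb (-0.53) stayed under the 1.5-fold size. Klf2 was, in the deeper cells, the 1 higher gene of 12, beside 6.51% of all genes. Under 10000 UMIs 2 of 12 were higher, Nr0b1 (0.80) and Fgf4 (1.13), and 3 lower, Nanog (-0.63), Esrrb (-1.07) and Zfp42 (-0.65), against the same 31.2% and 16.6%. Over all members, formative and trophoblast genes had 0 of 3 and 0 of 3 past the 1.5-fold size. Under 10000 UMIs 2 of 3 formative genes were lower, Tcf7l1 and Etv5, and 0 higher, with a median of -0.68. Of 4 trophoblast genes there, Krt8 and Krt18 were higher and Gata2 and Tfap2c lower, with a median of 0.05. The shares of all genes were again 31.2% higher and 16.6% lower. No gene of the mesoderm, neural, fibroblast and 2-cell embryo lists passed 20 CPM, and 11 of 11 genes of the 2-cell embryo list found in the files had no UMI in the members.

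Macrophage markers were nearly absent. Of 14, 11 had no UMI in any member, among them Adgre1, Csf1r, Ptprc, Tyrobp and Lyz2, each count of 0 allowing up to 0.981 CPM. The list summed to 72.3 CPM in the members and 43.9 in the others, and Cd68, which is also in the lysosome list, gave 70.6 and 43.1 of those. Cd68 in the deeper cells was under the 1.5-fold size (log2 0.50). Of 12 visceral endoderm genes, 4 had no UMI in the members (Cubn, Apob, Afp and Fgb), and Apoe alone passed 20 CPM.

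Primitive endoderm genes had part of their difference from 2 members. All 5 genes of that list past the minimum were higher, beside 8.92% of all genes, with a median log2 ratio of 1.02. In the deeper cells 3 of 4 were higher, beside 6.51% of all genes, with a median of 0.85. Of 11 secreted matrix genes other than Spp1, a list that overlaps the primitive endoderm list, 7 were higher, with a median of 0.61. In the deeper cells 3 of 8 matrix genes were higher, with a median of 0.40. The summed level of the primitive endoderm list was 24654 and 18107 CPM in 2 members, 4259 in the next, and 815 in the median member, against 486 in the median other cell. Those 2 cells, of 9499 and 15089 UMIs, held 16.5% of the list's UMIs in the members. They held 230 UMIs of Sparc, 100 of Col4a1, 91 of Col4a2 and 35 of Lamb1, which encode basement membrane proteins. They held as well the transcription factor genes Gata6 (5 UMIs), Sox17 (4), Foxa2 (4) and Gata4 (3). Without them, a choice made after seeing the data, 1 of 4 primitive endoderm genes was higher, Sparc (log2 0.90), with a median of 0.04. The list still summed to 908 CPM in the other 187 members, against 1079 with the 2 cells and 524 in the other cells. The small cluster of 49 mostly shallow members, which held neither cell, stood at 1543 CPM. Of the matrix genes, 3 of 10 were then higher, with a median of 0.18. Col4a1 went from 0.86 to -0.15 and Col4a2 from 1.22 to -0.12. Over all genes, 431 were then higher (8.85%) and 54 lower (1.11%), and 418 of the 431 were among the 434.

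Other values resting on few cells were those of 2 BMP target genes. Id3 was at 28.4 against 4.94 CPM, but 9 members held its 87 UMIs and 1 of them held 54. For Id1, 40.0% of the members' UMIs came from 2 cells. Neither value describes the members at large.

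Depth split the members into sets of unlike size of difference. The 52 members under 10000 UMIs were set against the 144 other cells under that bound: 1738 of 5572 genes were higher (31.2%) and 923 lower (16.6%). Those other cells were unusual in that 65 of the 144 (45.1%) had under 0.5% mitochondrial UMIs, compared with 6.04% of all other cells, and the part of this in the counts was not tested. Lysosome genes were higher in 48 of 60 there, with a median of 1.47, and endoplasmic reticulum chaperones in 14 of 14, with a median of 2.36. Spp1 stood at 3823 against 449 CPM and Ctsl at 1383 against 98.2 CPM, compared with 2133 against 570 and 318 against 110 in the deeper cells. In the shallow members the median mitochondrial share was 5.79% against 0.772% in the shallow other cells, that of Malat1 1.08% against 0.166% and that of ribosomal protein RNA 24.6% against 34.9%. In the deeper cells the same medians were 2.09% against 2.56%, 0.706% against 0.852% and 35.4% against 38.1%. Shallow members thus had more mitochondrial and nuclear RNA than shallow other cells, and deeper members did not. The part of these measures in the differences was not tested.

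Clustering the LBPXRS cells without the 5 rule genes did not return the members as a cluster. At resolution 0.5, 97 members (51.3%) lay in 1 cluster of 238 cells, of which they made up 40.8% (34.5 to 47.3), and 49 (25.9%) in another of 771 cells. At resolution 1, 49 cells, all of them members, formed a small cluster, and it is left without a name. It had a median of 7606 UMIs, a median mitochondrial share of 6.88%, and 36 of its cells were under 10000 UMIs. The other 140 members, with medians of 19223.5 UMIs and 2.05%, were set against the 2516 other cells on their own: 290 of 4812 genes were higher (6.03%) and 56 lower (1.16%). Lysosome genes were higher in 12 of 46 among them, with a median of 0.39, and endoplasmic reticulum chaperones in 4 of 11, with a median of 0.46. Ctsd had a log2 ratio of 1.05 and Hspa5 of 0.91 in those 140 cells.

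Lysosome genes were also higher towards higher scores among the cells below the bound. With the LBPXRS cells ordered by score in 20 bands, the summed level of the lysosome genes outside the rule was 4264 CPM in band 1, 5021 in band 10 and 6077 in band 18. Bands 1 to 18 hold no members. Band 19, at 5983 CPM, lies across the bound and holds 54 members, and band 20, at 8240 CPM, holds the other 135. Endoplasmic reticulum chaperones stood at 1096, 1301, 1591, 1732 and 3096 CPM in the same 5 bands. In cells with at least 10000 UMIs, band 20 stood at 7316 CPM for the lysosome genes and 2349 CPM for the chaperones. Of the cells in band 20, 50 were under 10000 UMIs.

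**Figure D4:**
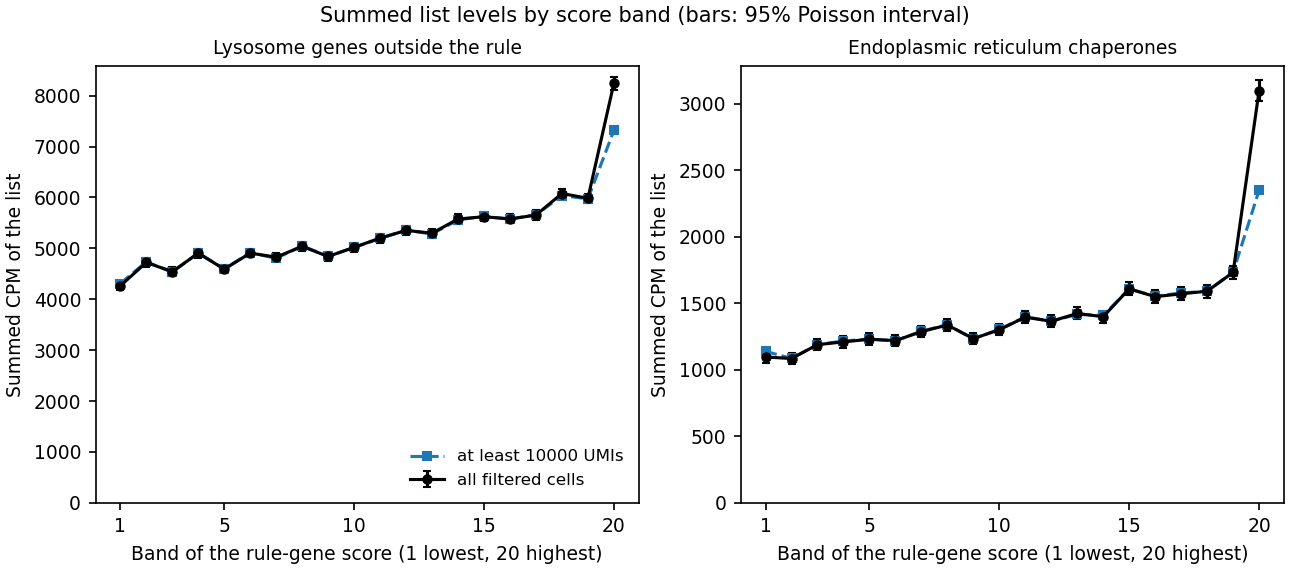
Summed CPM of lysosome genes outside the rule and of endoplasmic reticulum chaperones in 20 bands of LBPXRS cells ordered by score, for all cells (black, with 95% Poisson intervals) and for cells with at least 10000 UMIs (blue squares). Both lists are higher in the later bands, with small reversals between neighbours, and for all cells the step from band 19 to band 20 is from 5983 to 8240 CPM and from 1732 to 3096 CPM.

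The bound of 0.252% was then applied by mitochondrial share and by library. Among LBPXRS cells, 40 of 95 above 5% mitochondrial RNA were past it (42.1%, 32.0 to 52.7), compared with 4.53% at 2 to 5%, 7.95% at 0.5 to 2% and 9.52% below 0.5%. By depth, 17 of 84 cells under 5000 UMIs (20.2%), 35 of 112 at 5000 to 10000 (31.3%), 5.67% at 10000 to 20000 and 5.22% from 20000 on were past it. In LB, 19 of 1783 cells were past it (1.07%, 0.643 to 1.66). That share was 0.540% among cells with at least 10000 UMIs, 0.364% with at least 2000 genes and at most 5% mitochondrial RNA (at the bound of 0.230% that 7% of LBPXRS cells then gave), and 2.97% with Spp1 left out of the score (at the bound of 0.107% that the other 4 genes gave). After thinning to 5000 UMIs, 0.866% of LB and 8.28% of LBPXRS cells were past it. The rule genes differed between the libraries to unlike extents: Spp1 was at 79.1 CPM in LB and 671 in LBPXRS, Cd9 at 88.5 and 282, Ctsl at 72.6 and 129, Atp6ap2 at 20.5 and 69.2, and Lgmn at 14.4 and 41.8. With 1 library per condition these differences have no test.

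The 19 LB cells past the bound were shallow, with a median of 9556 UMIs against 25501.5 in the other LB cells and a mitochondrial share of 7.15% against 2.71%. Against the other LB cells, 2538 of 6176 genes were higher (41.1%) and 1188 lower (19.2%). Lysosome genes were higher in 41 of 61 of them, with a median of 1.09, and endoplasmic reticulum chaperones in 10 of 13, with a median of 1.69. Of the 2538 higher genes, 334 were among the 434 of the LBPXRS members, which is 77.0% of the latter and 13.2% of the former.

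**Figure D5:**
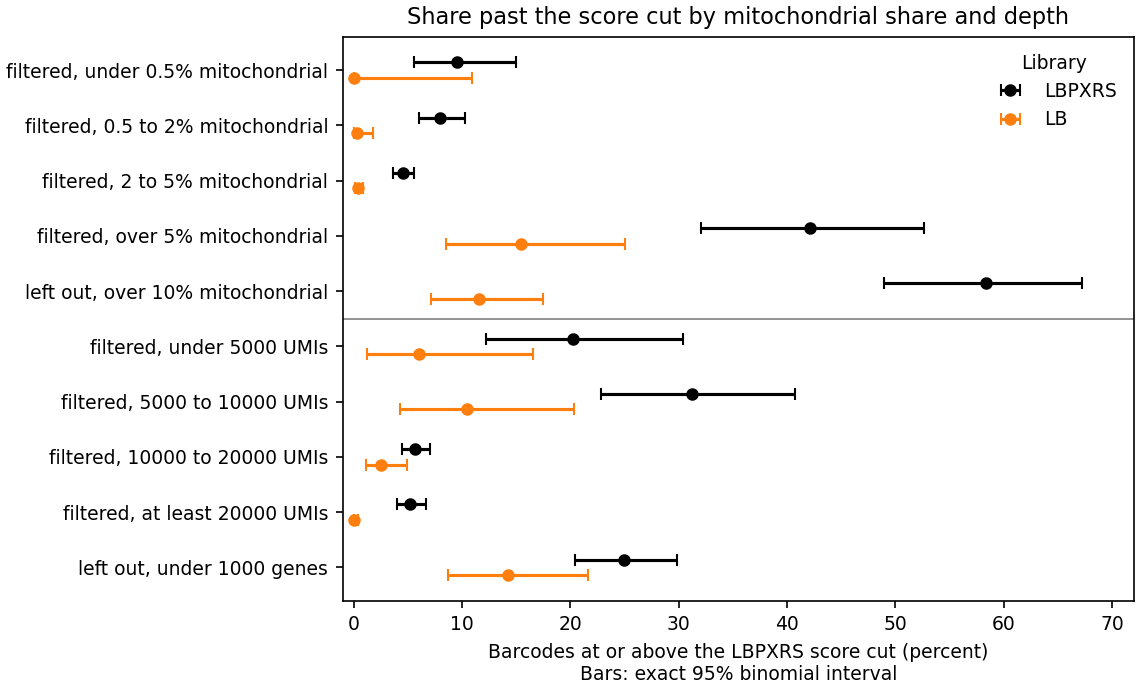
Percent of barcodes at or above the score bound of 0.252% by mitochondrial share (top) and by UMIs or genes (bottom), in LBPXRS (black) and LB (orange), for filtered cells and for barcodes that the filters left out, with exact binomial 95% intervals. Among filtered cells the highest share is 42.1%, in LBPXRS cells above 5% mitochondrial RNA, and LB reaches 15.5% in the same class.

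Other sets of the same size were chosen in LBPXRS by other genes, and each holds 6.99% of all filtered LBPXRS cells. Of the 189 members, 31 (16.4%, 11.4 to 22.5) were in the 7% highest in Gata2 and Aqp3, and of the deeper members 12.4%. Aqp3 is also among the 12 genes with the largest ratios. In the set highest in G2/M genes were 21 members (11.1%, 7.01 to 16.5), or 8.76% of the deeper ones. The sets for Krt8 and Krt18 (18 members, 9.52%, 5.74 to 14.6), Chac1 and Trib3 (14, 7.41%, 4.11 to 12.1) and Lin28a and Tcf7l1 (7, 3.70%, upper bound 7.48) had shares whose intervals hold 6.99%. Of the members, 16 (8.47%, 4.92 to 13.4) had under 0.5% mitochondrial UMIs, as did 6.21% of all filtered LBPXRS cells.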

How the data were processed

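The authors deposited UMI counts per gene and cell barcode for 32285 genes, 1 matrix per condition. Per the submitters' processing notes the matrices were made with Cell Ranger 4.0.0 on mm10, and per the labels' protocols from 10x Genomics 3′ version 2 libraries. Cell calling settings and the annotation release are not given in the sources used here. Barcodes with under 1000 genes or over 10% mitochondrial UMIs were left out. Scrublet marked 14 of 2705 LBPXRS cells (0.518%) and 0 members. The marked cells were kept. The libraries shared 10 barcodes, 8 of them filtered LBPXRS cells and 0 of them members.

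Deposited counts were summed over cells and scaled to a total of 1000000 (CPM). Ratios are log2 of CPM plus a pseudocount of 1, which understates the change of low genes, and genes needed 20 CPM in either group. With 1 library per condition, and members chosen on the same cells, no test was made. Genes were counted by size, at 1.5-fold and 2-fold. The code was checked on simulated counts. Named genes are the 5 rule genes, the 12 largest and 12 smallest ratios at 50 CPM or more, and members of the gene lists. The members, lists and alternatives were chosen with earlier results of these data known. The endoplasmic reticulum translocation list, the bound of 10000 UMIs and the choice to leave out 2 cells were made after these values were seen. Clustering used scanpy 1.11.5 without the rule genes (10000 UMIs per cell, log scale, 2000 variable genes, 30 principal components, 15 neighbours, Leiden resolution 0.5 and 1). Correlations, and where stated shares past the bound, used cells thinned to 5000 UMIs, which left out 84 LBPXRS cells, 17 of them members. TMM factors came from edgeR 4.0.16. Other steps used Python 3.11.15, numpy 2.4.6, scipy 1.17.1 and pandas 2.3.3, and figures matplotlib 3.10.9. Promoter windows are RefSeq starts on GRCm38.p6, the assembly of mm10, and all 5 rule genes were matched by symbol. Some genes of the lists are not reported here.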

Additional observations from a re-analysis of the deposited data

Results flagged for a closer look

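Cells left out of all comparisons above also passed the score bound of 0.252%. Of the 120 LBPXRS barcodes left out for over 10% mitochondrial UMIs, 70 passed it (58.3%, exact interval 49.0 to 67.3). Of those with at least 1000 genes, 53 of 65 did (81.5%). Of the 341 LBPXRS barcodes left out for under 1000 genes, 85 passed it (24.9%, 20.4 to 29.9). These barcodes had a median of 930 UMIs, and at that depth a few molecules of the rule genes are enough to pass, so this share may be set by counting and is not read as expression. In LB, 19 of 164 barcodes left out for over 10% mitochondrial UMIs passed it (11.6%, 7.12 to 17.5), compared with 1.07% of the filtered LB cells.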

How the results depend on the processing

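No paired analysis was possible because each condition has 1 library. The count of higher genes (434) stayed within 1.5 times under 11 of 17 alternatives. The genes were not always the same: within the cluster that held most members 428 were higher, 196 of them among the 434, and with the score without Spp1 61 were lower, 11 of them among the 50. It was 668 with the top 5% of cells, 766 with the mean of cell CPM, 697 at a minimum of 5 CPM, 252 with at least 2000 genes and at most 5% mitochondrial RNA, 1019 without a cell filter and 260 with members chosen anew at 10000 UMIs or more. The count of lower genes (50) was 31 with thinned cells, 102 with members chosen on a random part of each cell's UMIs and values from the rest, 105 with the top 5%, 28 with the top 10%, 141 with cell means, 91 with TMM, 308 at 5 CPM, 176 without a cell filter and 168 within the cluster that held most members. The lysosome median (0.60) was above 0 in all 17. It was 0.53 thinned, 0.54 with that random split, 0.74 with the top 5%, 0.46 with the top 10%, 0.93 with cell means, 0.54 with TMM, 0.50 at 5 CPM, 0.38 with the stricter cell filter, 1.09 without one, 0.56 without cells under 0.5% mitochondrial RNA, 0.74 within that cluster, 0.44 for the members at 10000 UMIs or more, 0.40 chosen anew there and 0.58 without the 2 cells highest in primitive endoderm genes. The last 3, and all settings at 10000 UMIs, were chosen after seeing the data. Ratios of the left-out genes all stayed above 2. With cell means they were 3.31 for Spp1, 4.56 for Lgmn, 5.29 for Ctsl, 3.71 for Cd9 and 4.28 for Atp6ap2. With the top 5% they were 2.94 for Spp1, 3.60 for Ctsl, 3.16 for Cd9 and 3.40 for Atp6ap2, and with the top 10%, in the order given for cell means, 2.33, 2.58, 2.98, 2.44 and 2.43. Thinned, in that order, they were 2.23, 2.66, 2.95, 2.44 and 2.42. At 10000 UMIs or more with the whole-library choice they were 2.16, 2.37, 2.40, 2.36 and 2.24, and chosen anew 2.09, 2.18, 2.25, 2.26 and 2.07. The LB share past the bound (1.07%) was 0.364% with the stricter cell filter and 2.97% without Spp1 in the score, each at the bound re-derived from LBPXRS cells (0.230% and 0.107%), and 0.540% at 10000 UMIs or more. The share of members in the cluster that held most (51.3%) was 29.6% at resolution 1, 43.3% with the top 10% and 40.9% at 10000 UMIs or more. The cause of these moves was not tested. Depth limits the sparse genes most: a count of 0, bounded at 3 UMIs, allows up to 0.981 CPM over the members and 7.53 CPM over the small cluster of 49.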
